A study of Homo sapiens with 24 samples.

Results

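The transcripts of the mitochondrial genome were examined one by one in ER-negative breast cancer cells under CDK4/6 inhibition and ER degradation. They were taken as every gene symbol of the count table that starts with MT-, which gave 37 of 59609 symbols, comprising 13 mRNAs, 2 rRNAs and 22 tRNAs. Gene counts came from 3′ RNA-seq of MDA-MB-231, a mesenchymal line, and MDA-MB-453, an epithelial line with high ERBB2. Wild-type cells of each line were kept for 5 days in DMSO, in abemaciclib at 500 nM, a CDK4 and CDK6 inhibitor, in fulvestrant at 5 nM, an ER degrader, or in both drugs at these doses, with 3 libraries in each of the 8 groups. The study's methods describe the 3 libraries of a group as biological replicates of an experiment that was done once, so the p-values measure the spread within that experiment. Each line is a single established culture, and the lines were also grown in different media.

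Human mitochondrial DNA is transcribed from both strands into long precursors, in which tRNAs sit between most of the other genes and are cut out to release the mRNAs and rRNAs. The mRNAs encode core subunits of the respiratory chain and ATP synthase, the rRNAs build the mitochondrial ribosome, and the tRNAs serve translation inside the organelle. Most genes are read from the heavy-strand promoter, whereas MT-ND6 is the only mRNA on the light-strand transcript. Mitochondrial mRNAs carry short poly(A) tails, and MT-ND6 is known to lack a stable one.

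The RNA was reverse transcribed from an oligo(dT) primer, which can anneal to a poly(A) tail or to a run of A inside a transcript. The A-richest 24 bases of selected members are therefore given, because the levels of some of these members moved with a library property described further on. They were picked by the most A in any 10 bases and need not hold the longest A run of the gene. That run is 6 A in MT-ATP8, 5 in MT-ATP6, 7 in MT-RNR2, 6 in MT-RNR1 and 3 in MT-ND6. Positions are from GENCODE v44 on hg38, where chrM has 16569 bases and all 37 members were matched. Of these, 28 are transcribed in the + orientation and 9 in the − orientation. Sequences are written 5′ to 3′ in the sense of the RNA, and capitals mark runs of at least 4 A.
MT-ATP8 (chrM:8489-8512, + strand): atAAAAAtAAAAAAttataacaaa
MT-ATP6 (chrM:8688-8711, + strand): AAAAcaaatgataaccatacacaa
MT-RNR2 (chrM:2446-2469, + strand): aaggaaaggttAAAAAAAgtAAAA
MT-RNR1 (chrM:730-753, + strand): aaatcaccacgatcAAAAggaaca
MT-ND6 (chrM:14285-14308, − strand): aagctgaataatttatgaaggaga

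The tRNA genes are shown whole for 5 members that fell in MDA-MB-231. MT-TF, MT-TM and MT-TS2 lie on the heavy-strand transcript, and MT-TP and MT-TY on the light-strand transcript. The CCA end of a mature tRNA is added after transcription and is not part of the gene. These genes are short, with 71 bases for MT-TF and 59 for MT-TS2. Counts in them can come from longer precursors as well as from mature tRNAs, and these sources were not told apart. A tRNA level here therefore means counts in the tRNA gene. MT-TF and MT-TM hold a run of 4 A at about the middle of the gene, MT-TY holds one near its 5′ end, and MT-TS2 and MT-TP hold none.
MT-TF (chrM:577-647, + strand): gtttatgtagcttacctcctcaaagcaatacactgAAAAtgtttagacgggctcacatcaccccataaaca
MT-TM (chrM:4402-4469, + strand): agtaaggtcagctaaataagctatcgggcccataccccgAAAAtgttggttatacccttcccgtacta
MT-TS2 (chrM:12207-12265, + strand): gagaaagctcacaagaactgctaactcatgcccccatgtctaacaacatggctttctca
MT-TP (chrM:15956-16023, − strand): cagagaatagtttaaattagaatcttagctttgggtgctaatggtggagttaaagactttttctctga
MT-TY (chrM:5826-5891, − strand): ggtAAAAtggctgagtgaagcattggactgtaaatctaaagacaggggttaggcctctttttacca

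Library totals ran from 2873558 to 4158762 counts. VIM and CD44, which mark MDA-MB-231, had 0 counts in all 12 libraries of MDA-MB-453, while FOXA1 averaged 196 ± 22.1 CPM under DMSO in MDA-MB-453 against 3.44 ± 1.99 in MDA-MB-231, and ERBB2 averaged 243 ± 14.4 against 15.6 ± 2.25 (SD, n = 3). CPM are counts scaled to a common library size, with TMM factors over the 24 libraries. With edgeR's filter on low counts, 28 members were tested in MDA-MB-231, and MDA-MB-453 had 27, among 11314 and 11080 genes. Members were called with edgeR's quasi-likelihood test where the p, adjusted by the Benjamini-Hochberg method across all genes in the fit, was below 0.05. In a bulk sample a change in the number of cells that make an RNA and a change in RNA per cell cannot be told apart, and every level here is relative to the rest of the library.

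All 13 mRNAs and both rRNAs averaged at least 10 CPM in a line, as did 7 tRNAs, namely MT-TF, MT-TV, MT-TL1, MT-TM, MT-TY, MT-TS2 and MT-TP. Another 6 tRNAs, MT-TI, MT-TQ, MT-TC, MT-TS1, MT-TD and MT-TT, averaged between 1 and 10 CPM. The remaining 9 tRNAs averaged below 1 CPM, were not tested, and include MT-TK, which had 0 counts in every library. On a scale of CPM per kilobase of gene, under DMSO, MT-ND3 was highest in both lines, with a mean of 58426 for MDA-MB-231 and 71600 for MDA-MB-453. MT-ND6 was the lowest mRNA on this scale, at 284 and 89.4. MT-ND4L and MT-ND4 share 7 bases, and MT-ATP8 and MT-ATP6 share 46, so reads in these stretches could have been counted for either gene or for neither.

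A library property that moved with several members was measured from nuclear genes alone. For genes of at least 5 CPM, the mean centred log2 CPM of genes whose longest transcript holds a run of 10 A more than 100 bases from its 3′ end was computed per library, and that of genes without such a run was subtracted. This A-stretch score was −0.020 to −0.014 in the DMSO libraries of MDA-MB-231. Under abemaciclib in this line it was −0.025 in replicate 1, −0.001 in replicate 2 and 0.069 in replicate 3, and under fulvestrant it was −0.012 in replicate 1 and −0.11 in replicates 2 and 3. The combination libraries had the highest scores of MDA-MB-231, at 0.060, 0.117 and 0.064.

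In MDA-MB-453 the score was −0.121 to −0.100 under DMSO. It was 0.020, 0.104 and 0.107 under abemaciclib, 0.035 to 0.050 under the combination, and 0.019, 0.040 and −0.086 in fulvestrant replicates 1, 2 and 3. The abemaciclib and DMSO libraries thus did not overlap in score in MDA-MB-453, and there the score and the treatment cannot be told apart, whereas they overlapped in MDA-MB-231. The combination libraries did not overlap in score with the DMSO libraries of either line, nor with the fulvestrant libraries of MDA-MB-231. MT-ATP8, a short subunit of ATP synthase whose A-rich window is printed above, was counted 0.103 to 0.111 times per MT-ATP6 count under DMSO in MDA-MB-453 and 0.136, 0.226 and 0.295 times under abemaciclib. Fulvestrant replicates 1 and 2 of this line gave 0.29 and 0.295, against 0.107 in replicate 3. The ratio did not follow the score in every library. The combination libraries of this line gave only 0.131 to 0.143. Abemaciclib replicate 1 and fulvestrant replicate 1, with scores of 0.020 and 0.019, gave 0.136 and 0.29. Fulvestrant replicate 1 of MDA-MB-231 gave 0.301 at a score of −0.012. In MDA-MB-231, fulvestrant replicates 2 and 3, of lowest score, had the lowest ratios, at 0.124 and 0.119, and combination replicate 2, of highest score, had the highest, at 0.356. Each member's effect was therefore also fitted with the score as a covariate, and in MDA-MB-453 without abemaciclib replicates 2 and 3 and fulvestrant replicates 1 and 2. Both alternatives were chosen after the data had been seen. The 4 libraries left out had the highest MT-ATP8 to MT-ATP6 ratios of the line and the higher scores within their groups. Not all of them had the highest scores of the line, since the combination libraries were kept.

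**Figure D1:**
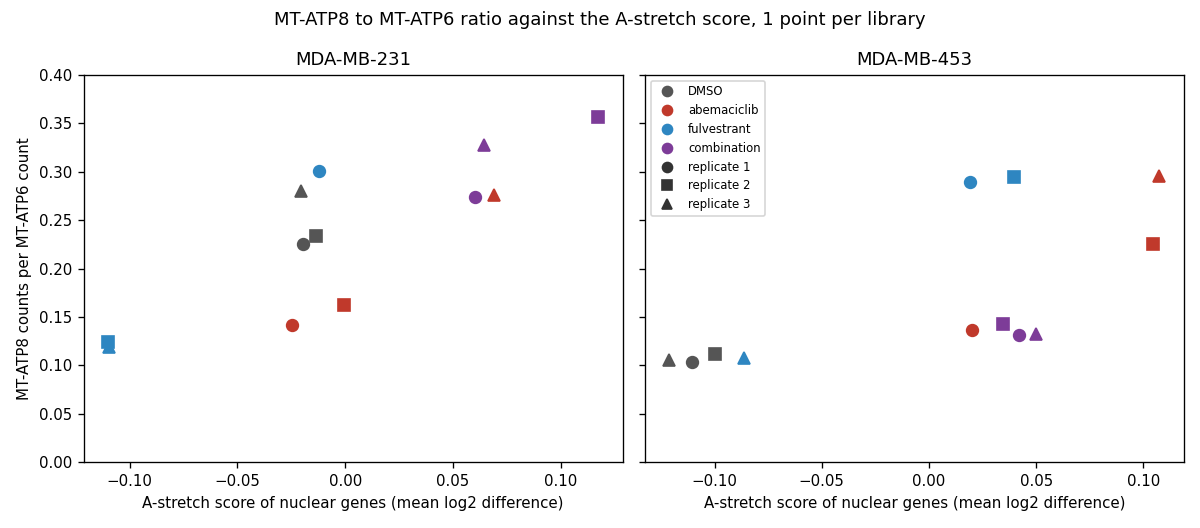
Counts of MT-ATP8 per count of MT-ATP6 (y axis) against the A-stretch score of nuclear genes (x axis, mean log2 difference), with 1 point per library, coloured by treatment and shaped by replicate, for each line. In MDA-MB-453 the 3 DMSO libraries sit at 0.103 to 0.111 with scores of −0.121 to −0.100, and the 2 abemaciclib and 2 fulvestrant libraries of highest ratio lie to their right. The combination libraries also lie to their right, at ratios of 0.131 to 0.143.

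The mitochondrial RNAs were first compared by class. In MDA-MB-231 the mRNAs took 6.54 ± 0.282% of counts under DMSO and 8.96 ± 0.744% under abemaciclib (SD, n = 3), and the rRNAs 2.1 ± 0.179% and 3.19 ± 0.467%. The tRNA share went the other way, from 0.202 ± 0.0198% to 0.0639 ± 0.0196%. This share mostly follows MT-TF, which had 108733 counts over the 24 libraries. MT-TL1, the next most counted tRNA, had 14025. In MDA-MB-453 all classes were higher under abemaciclib, the mRNAs at 13.9 ± 0.463% against 10.2 ± 0.42%, the rRNAs at 9.53 ± 1.83% against 4.94 ± 0.229% and the tRNAs at 0.338 ± 0.12% against 0.0927 ± 0.00437%. Abemaciclib and DMSO libraries overlapped in none of these 6 comparisons, and each gave an exact 2-sided permutation p of 0.1, the smallest that 3 libraries against 3 allow. These shares leave out the A-stretch score, which did not overlap between abemaciclib and DMSO in MDA-MB-453. In that line the calls of both rRNAs and of MT-TF depended on the score, as given below.

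**Figure D2:**
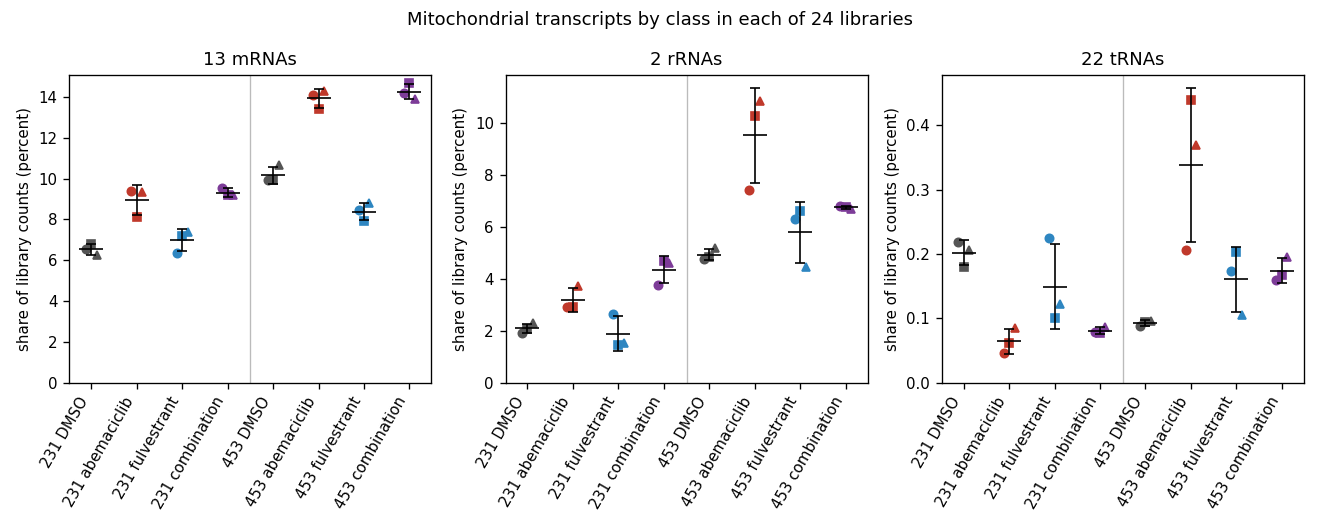
Share of library counts (y axis, percent) in mitochondrial mRNAs, rRNAs and tRNAs for each of the 24 libraries, grouped by line and treatment. Most of the tRNA counts were in MT-TF. The tRNA share of MDA-MB-231 lies at 0.18 to 0.219% under DMSO and 0.0458 to 0.0847% under abemaciclib, whereas that of MDA-MB-453 lies at 0.0878 to 0.0963% and 0.206 to 0.44%.

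In MDA-MB-231, abemaciclib against DMSO, 9 of the 28 tested members rose and 7 fell, against 16.9% of all genes called higher and 16.9% called lower. The 9 that rose were 7 mRNAs and both rRNAs, and the 7 that fell were MT-ND6 and 6 tRNAs. The median log2 fold change was 0.15 over the tested members and −0.00047 over all genes. All mRNAs that rose come from the heavy strand, of which 7 of 12 rose and none fell. The A-stretch scores of the abemaciclib and DMSO libraries overlapped in this line, and 14 of the 16 calls held in every alternative tried, the other 2 being MT-ND3 and MT-TI.

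Of the subunits of cytochrome c oxidase, or complex IV, MT-CO2 and MT-CO3 rose and MT-CO1 was not called. MT-CO2, which carries its copper site for electron entry, was at 4728, 5168 and 4569 CPM under DMSO and 10991, 9860.3 and 10599 CPM under abemaciclib. Every abemaciclib library was above every DMSO library, with a log2 fold change of 1.12 (adjusted p 1.3e-16, SE 0.07). MT-CO3, a further core subunit, went from 5866, 6309 and 5456 to 8887, 8535 and 7729 CPM with a log2 fold change of 0.52 (adjusted p 3.0e-07, SE 0.07). MT-CO1, the catalytic subunit, gave 1411, 1502 and 1354 CPM under DMSO and 1565, 1485 and 1664 under abemaciclib, groups that overlapped, and it was not called at 0.15 (adjusted p 0.14, SE 0.08).

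Of the complex I subunits on the heavy strand, MT-ND4, MT-ND5 and MT-ND3 rose. MT-ND4, a proton-pumping subunit, was at 9223, 9856 and 7651 CPM under DMSO and 17324, 13262 and 18548 under abemaciclib, without overlap, and its log2 fold change was 0.88 (adjusted p 8.0e-11, SE 0.09). MT-ND5, also a proton-pumping subunit, went from 1898, 1787 and 1837 to 2428, 2510.3 and 2556 CPM with a log2 fold change of 0.44 (adjusted p 5.3e-06, SE 0.07). MT-ND3, the most abundant mRNA per length, moved less, with a log2 fold change of 0.21 (adjusted p 0.013, SE 0.07). MT-ND1, MT-ND2 and MT-ND4L were not called, at log2 fold changes of −0.13 (SE 0.10), −0.13 (SE 0.08) and −0.15 (SE 0.08). MT-ND4L and MT-ND4 are neighbours read from 1 bicistronic mRNA, yet only MT-ND4 was called, and the difference between these 2 members was not tested.

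MT-CYB, the only complex III subunit encoded here, was at 2505, 2559.7 and 2066 CPM under DMSO and 4442, 4403 and 4221 under abemaciclib. The groups did not overlap, and the log2 fold change was 0.88 (adjusted p 3.0e-12, SE 0.08). MT-ATP6, which forms part of the proton channel of ATP synthase, rose with a log2 fold change of 0.48 (adjusted p 1.5e-05, SE 0.08), from 7653, 7873 and 6247 to 10904, 9048 and 10294 CPM. MT-ATP8 was at 1724, 1838 and 1751 CPM under DMSO and 1549, 1473 and 2840.2 under abemaciclib and was not called, at 0.15 (adjusted p 0.51, SE 0.16); its high value was in abemaciclib replicate 3, the library of that group with the highest A-stretch score.

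Both rRNAs rose. MT-RNR2, the large-subunit rRNA, was at 15616, 17074 and 18162 CPM under DMSO and 23952, 24116 and 31826 under abemaciclib, with a log2 fold change of 0.65 (adjusted p 4.3e-05, SE 0.12). MT-RNR1, the small-subunit rRNA, went from 3148, 3463 and 3994 to 4681, 4464 and 4422 CPM with a log2 fold change of 0.36 (adjusted p 0.0027, SE 0.09). With the A-stretch covariate these values were 0.43 and 0.28, both still called.

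**Figure D3:**
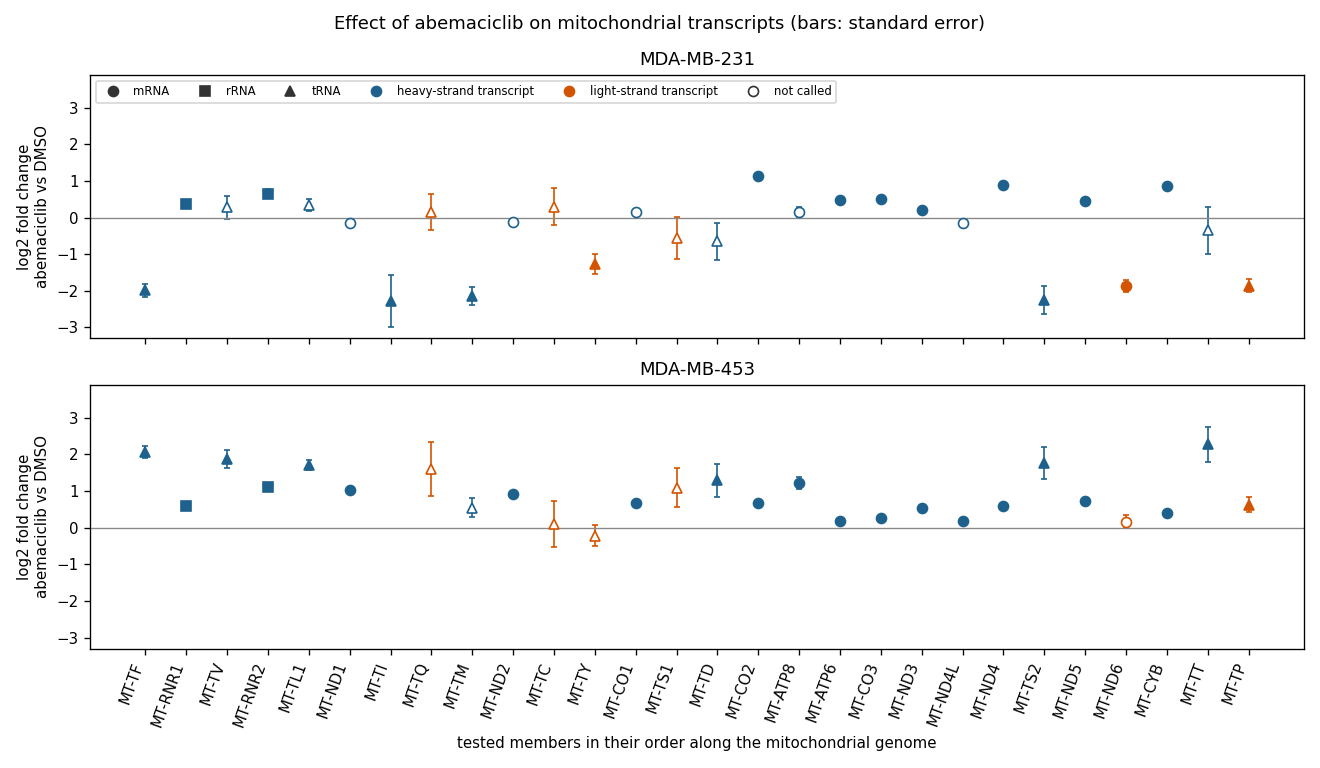
Log2 fold change of abemaciclib against DMSO (y axis) for each tested member in its order along the mitochondrial genome (x axis), in each line, with bars for the standard error and shapes for mRNA, rRNA and tRNA. In MDA-MB-231 MT-TF, MT-TI, MT-TM, MT-TS2, MT-ND6 and MT-TP stand below −1.8, and in MDA-MB-453 no member was called lower.

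Counts in MT-ND6 fell to 0.274 of their DMSO level. This complex I subunit was at 135, 184 and 129 CPM under DMSO and 39.3, 27 and 55.6 CPM under abemaciclib, and the highest abemaciclib library was below the lowest DMSO library. The log2 fold change was −1.87 (adjusted p 2.2e-12, SE 0.16). Per 1000 counts in mitochondrial mRNAs, MT-ND6 took 2.33 ± 0.362 counts under DMSO and 0.459 ± 0.139 under abemaciclib (exact permutation p = 0.1), and all 3 abemaciclib libraries were below all 3 DMSO libraries. As the sequence above shows, its A-richest window holds no run of 4 A. The strand setting of the counting is not given in the sources used here. Counts in MT-ND6, MT-TP and MT-TY could therefore include RNA of the opposite strand, which was not tested.

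The tRNA genes whose counts fell came from both strands, and whether the mature tRNAs fell was not tested. MT-TF, the tRNA for phenylalanine and the first gene of the heavy-strand transcript, was at 1851, 1472 and 1709.8 CPM under DMSO and 301, 391 and 578 under abemaciclib. All abemaciclib libraries were below all DMSO libraries, with a log2 fold change of −1.98 (adjusted p 1.7e-12, SE 0.17). MT-TF directly precedes MT-RNR1, which rose, and the counts of MT-TF per 100 counts of MT-RNR1 went from 48 ± 9.32 to 9.42 ± 3.37 (exact permutation p = 0.1).

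MT-TM, the tRNA for methionine, gave 43.4, 39.1 and 41.8 CPM under DMSO and 8.08, 9.2 and 10.7 under abemaciclib, with a log2 fold change of −2.15 (adjusted p 1.6e-09, SE 0.24). MT-TP, for proline, is on the light-strand transcript and went from 87.8, 86.6 and 73 to 18.4, 22.6 and 26.9 CPM, with a log2 fold change of −1.86 (adjusted p 3.1e-11, SE 0.18). Neither member's groups overlapped. MT-TS2, for serine, was at 22.9, 10.1 and 16.8 CPM under DMSO and 1.95, 4.75 and 3.73 under abemaciclib, with a log2 fold change of −2.24 (adjusted p 1.2e-05, SE 0.39). MT-TY, for tyrosine, was at 14.9, 21.3 and 21.5 CPM under DMSO and 5.29, 9.2 and 9.32 under abemaciclib, also without overlap, with a log2 fold change of −1.27 (adjusted p 3.8e-04, SE 0.28). MT-TI, for isoleucine, is a rare member with fewer than 11 CPM in any library of the line, and its log2 fold change was −2.27 (adjusted p 0.01, SE 0.70).

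Not every tRNA fell. MT-TL1, for leucine, and MT-TV, for valine, flank MT-RNR2 and were not called, at log2 fold changes of 0.34 (adjusted p 0.12, SE 0.17) and 0.28 (adjusted p 0.52, SE 0.31). MT-TQ, MT-TC, MT-TS1, MT-TD and MT-TT were below 10 CPM in every library of the DMSO and abemaciclib groups and were not called, with log2 fold changes from −0.65 to 0.30 and standard errors of 0.49 to 0.63, so that only large changes were detectable at this depth.

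**Figure D4:**
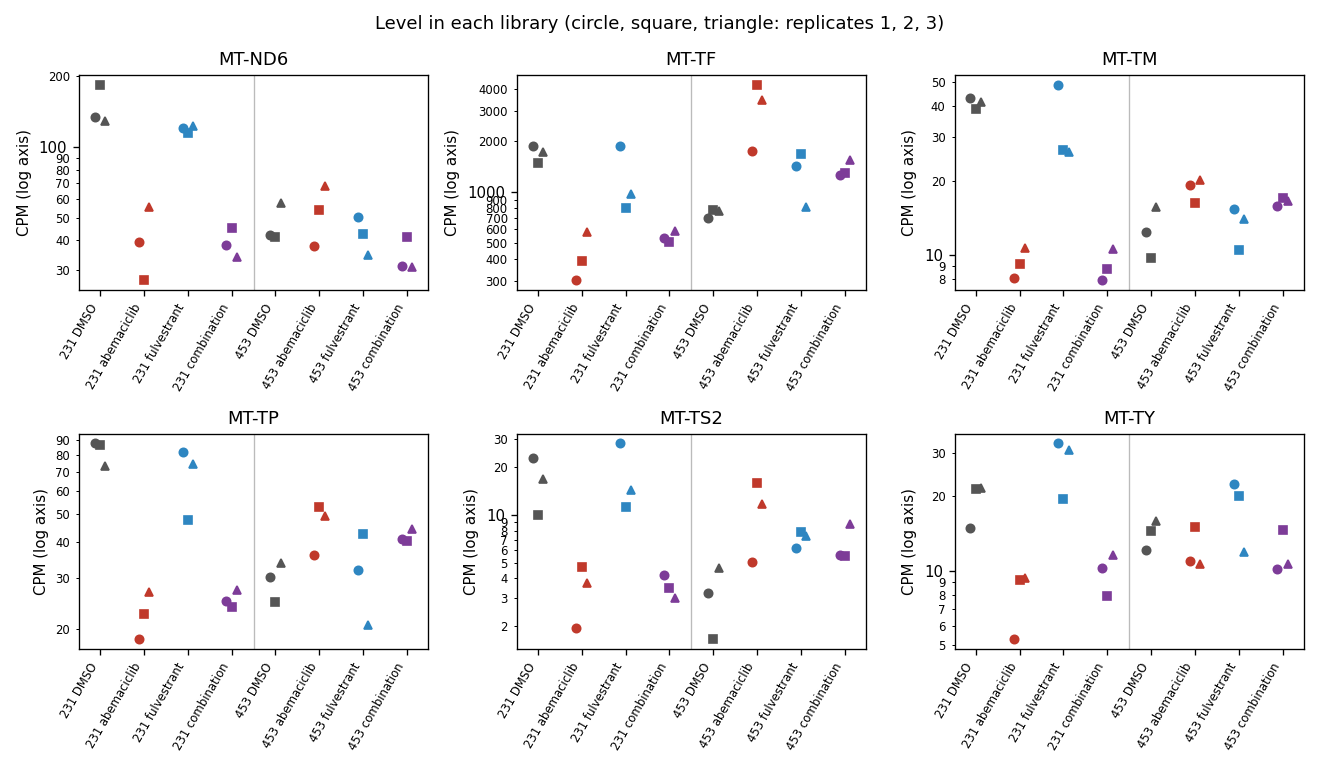
CPM (y axis, log scale) of 6 members in each library of the 8 groups, with circles, squares and triangles for replicates 1, 2 and 3. MT-ND6 lies at 129 to 184 CPM under DMSO and 27.0 to 55.6 under abemaciclib in MDA-MB-231, and at 41.4 to 57.5 and 37.6 to 67.8 in MDA-MB-453.

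In MDA-MB-453, abemaciclib against DMSO, 21 of the 27 tested members rose and 0 fell, against 16.6% of all genes called higher and 19.4% called lower. All 12 heavy-strand mRNAs, both rRNAs and 7 tRNAs were among them. The median log2 fold change was 0.68 over the tested members and −0.0025 over all genes. With the score as a covariate, 12 members were called higher and 1 lower, and without the 4 libraries named above 17 were called higher and 0 lower. Only 10 of the 21 calls held in every alternative, namely MT-TL1, MT-ND1, MT-ND2, MT-ND3, MT-ND4, MT-ND5, MT-CO1, MT-CO2, MT-CO3 and MT-CYB.

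Among these 10, MT-ND1 and MT-ND2 had the largest changes of the mRNAs. MT-ND1 was at 1646, 1561 and 1686 CPM under DMSO and 2814, 3531 and 3744 under abemaciclib, without overlap, with a log2 fold change of 1.04 (adjusted p 7.3e-15, SE 0.08). MT-ND2 was at 3907, 4003 and 4154 CPM under DMSO and 7351, 7355 and 8113 under abemaciclib, also without overlap, with a log2 fold change of 0.91 (adjusted p 9.4e-16, SE 0.07). With the A-stretch covariate the values were 0.64 and 0.88, and without the 4 libraries 0.77 and 0.85. The other complex I subunits of this set, MT-ND3, MT-ND4 and MT-ND5, had log2 fold changes of 0.55 (SE 0.07), 0.59 (SE 0.06) and 0.73 (SE 0.08).

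The complex IV subunits rose by 0.68, 0.67 and 0.27 on the log2 scale for MT-CO1, MT-CO2 and MT-CO3. MT-CO2, for example, was at 11841, 12012 and 13339 CPM under DMSO and 19334, 19195 and 20784 under abemaciclib. MT-CYB of complex III rose by 0.40 (SE 0.07). MT-TL1 was at 97.9, 92.4 and 134 CPM under DMSO and 294, 356 and 418 under abemaciclib, groups without overlap, and its log2 fold change of 1.71 (adjusted p 1.3e-15, SE 0.12) was 1.16 with the covariate and 1.43 without the 4 libraries. MT-ATP6 and MT-ND4L changed least of the called members, each by 0.18, and the MT-ATP6 groups overlapped.

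For both rRNAs, MT-ATP8 and several tRNAs of MDA-MB-453, the call or its sign depended on whether the A-stretch score was in the fit. MT-RNR2 was at 39899, 40136 and 44849 CPM under DMSO and 66630, 99736 and 105670 under abemaciclib, with the 2 highest values in the libraries of highest score. Its log2 fold change was 1.12 (adjusted p 1.2e-12, SE 0.10), 0.05 with the covariate and 0.66 without the 4 libraries. MT-RNR1 had a log2 fold change of 0.58 (adjusted p 1.3e-08, SE 0.07), 0.07 with the covariate.

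MT-TF was at 705, 776 and 770.1 CPM under DMSO and 1746, 4272 and 3475 under abemaciclib. The groups did not overlap, with a log2 fold change of 2.07 (adjusted p 5.8e-14, SE 0.17), but it was 0.12 with the covariate and 1.20 without the 4 libraries. MT-ATP8 showed 1451, 1514 and 1606 CPM under DMSO and 2324, 3442 and 4907 under abemaciclib, and its log2 fold change of 1.22 (adjusted p 7.2e-08, SE 0.17) became −0.71 with the covariate. The same turn of direction was seen for MT-TV, from 1.88 to −0.20, and for MT-TP, from 0.63 to −0.65. The called tRNAs MT-TS2, MT-TD and MT-TT had log2 fold changes of 1.76 (SE 0.44), 1.29 (SE 0.45) and 2.27 (SE 0.47) at levels below 20 CPM.

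MT-ND6 was not called in MDA-MB-453. It was at 42, 41.4 and 57.5 CPM under DMSO and 37.6, 53.8 and 67.8 under abemaciclib, groups that overlapped, with a log2 fold change of 0.16 (adjusted p 0.52, SE 0.18). Per 1000 mitochondrial mRNA counts it took 0.448 ± 0.0595 and 0.348 ± 0.0881 (exact permutation p = 0.3). MT-TM, MT-TY, MT-TQ, MT-TC and MT-TS1 were also not called, at log2 fold changes from −0.22 to 1.60.

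The difference between the lines was tested directly, by subtracting the log2 effect of abemaciclib in MDA-MB-231 from the one in MDA-MB-453 in a fit of all 24 libraries. The difference was positive for 17 of 28 members and negative for 2, against 7.72% of all genes called higher and 13% called lower. Of these 19 calls, 10 held in every alternative, 9 positive and 1 negative. The median was 1.07 over the members and −0.07 over all genes. The light-strand mRNA MT-ND6 differed by 2.04 (adjusted p 6.2e-08, SE 0.27) on the log2 scale, and MT-TF, MT-TS2, MT-TM and MT-TP by 4.06 (SE 0.31), 4.01 (SE 0.61), 2.705 (SE 0.35) and 2.50 (SE 0.28). These 5 differences held in every alternative, and with the A-stretch covariate they were 1.43, 2.62, 2.94, 2.34 and 1.70.

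MT-ND1, MT-ND2 and MT-CO1 also had a larger effect in MDA-MB-453, by 1.18 (SE 0.14), 1.05 (SE 0.11) and 0.54 (SE 0.10) on the log2 scale. MT-CO2 and MT-CYB rose in both lines and had the smaller effect in MDA-MB-453, with differences of −0.45 (adjusted p 3.6e-04, SE 0.10) and −0.46 (adjusted p 8.0e-04, SE 0.11). The call for MT-CYB did not hold in every alternative. The rRNAs did not pass the test of the difference, at 0.47 (adjusted p 0.087, SE 0.20) for MT-RNR2 and 0.23 (adjusted p 0.25, SE 0.14) for MT-RNR1. The difference for MT-ATP8, 1.08, turned to −0.36 with the covariate.

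Without drug, the share of members that differed between the lines was close to that of all genes. Under DMSO, 11 of 28 members (39.3%) were higher and 10 (35.7%) lower in MDA-MB-453 than in MDA-MB-231, against 34.3% and 35.6% of all genes. The 11 higher members were 9 heavy-strand mRNAs and both rRNAs, with log2 differences of 1.36 (adjusted p 5.2e-23, SE 0.07) for MT-CO2 and 1.33 (adjusted p 6.5e-17, SE 0.10) for MT-RNR1. The lower members included MT-ND6, at −1.67 (adjusted p 3.7e-11, SE 0.18), MT-ND1, at −0.53 (adjusted p 1.1e-05, SE 0.10), MT-ND2, at −0.27 (adjusted p 0.0034, SE 0.08), and 7 tRNAs. MT-TF, MT-TM, MT-TS2 and MT-TP, which fell under abemaciclib in MDA-MB-231, were among these tRNAs, at −1.16 (SE 0.21), −1.72 (SE 0.24), −2.37 (SE 0.43) and −1.48 (SE 0.19). The A-stretch scores were centred within each line, and culture medium and line cannot be told apart in this comparison.

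Fulvestrant alone gave no called member in MDA-MB-231. With edgeR 0 of 28 members and 0% of all genes were called, while 5 members had an unadjusted p below 0.05 and DESeq2 called 0. MT-ND3 had the smallest p, at a log2 fold change of 0.26 (adjusted p 0.27, SE 0.07), with 21164, 25241 and 26498 CPM under fulvestrant against 19508, 20517 and 20621 under DMSO. The fulvestrant libraries differed among themselves. MT-RNR2 was at 21292, 11115 and 11870 CPM, MT-TF at 1846, 798 and 974 and MT-ATP8 at 1857, 993 and 969.8, with replicate 1 high in all 3 members. Replicate 1 also had the A-stretch score nearest to DMSO, and without it 5 members were called.

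In MDA-MB-453 fulvestrant against DMSO, 3 members rose and 9 fell, against 1.05% and 0.406% of all genes. All 9 that fell were heavy-strand mRNAs, and those that rose were MT-TF, MT-TL1 and MT-ATP8. MT-ATP6 was at 14067, 13605 and 15265 CPM under DMSO and 10208, 9560 and 11533 under fulvestrant, without overlap, with a log2 fold change of −0.45 (adjusted p 1.4e-04, SE 0.06). It was the only call that held in every alternative, at −0.28 with the A-stretch covariate and −0.31 without the 4 libraries. The next largest falls were those of MT-ND3, at −0.43 (adjusted p 2.2e-04, SE 0.07), and MT-ND4L, at −0.39 (adjusted p 0.0016, SE 0.07). MT-ATP8 at 2956, 2818 and 1237 CPM and MT-TF at 1424, 1661 and 815 CPM were high in fulvestrant replicates 1 and 2, and their log2 fold changes of 0.63 and 0.81 turned to −0.48 and −0.27 with the covariate. The number of calls was 5 to 7 without any single DMSO library or fulvestrant replicate 1, and 2 without fulvestrant replicate 2.

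The combination was compared with fulvestrant to see the abemaciclib effect in libraries that are in neither group of the comparison of abemaciclib with DMSO. Both comparisons come from the same fit of a line, so they share its estimate of the spread. In MDA-MB-231, 13 members rose and 8 fell, against 17.6% and 18.5% of all genes. With the A-stretch covariate 8 were called higher and 7 lower, and 13 of the 21 calls held in every alternative. All 7 members that fell with abemaciclib against DMSO fell here too, as did MT-ND4L, and 8 of the 9 that rose did so in both comparisons. MT-ND6 was at 121, 115 and 123 CPM under fulvestrant and 38.1, 44.9 and 33.8 under the combination, without overlap, with a log2 fold change of −1.61 (adjusted p 8.8e-11, SE 0.16). MT-CO2 went from 4609, 5250.1 and 5376 to 11460, 10625 and 10424 CPM with a log2 fold change of 1.10 (adjusted p 2.1e-16, SE 0.07), and MT-TM from 49, 26.5 and 26 to 7.89, 8.8 and 10.6 CPM with −1.89 (adjusted p 2.3e-08, SE 0.24). MT-ATP8, MT-TL1 and MT-ND1, at 1.29, 0.98 and 0.37, were called here but not with abemaciclib against DMSO, and all 3 turned to values below 0 with the A-stretch covariate.

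In MDA-MB-453, 15 members rose and 0 fell with the combination against fulvestrant, against 17.2% and 19.4% of all genes. With the covariate 13 were called higher and 5 lower, the 5 being MT-TF, MT-TV, MT-TY, MT-ATP8 and MT-ND6, while without the 4 libraries 17 were called higher and 0 lower. Of the 15 that rose without these changes to the fit, 14 were among the 21 that rose with abemaciclib against DMSO, and the other was the rare tRNA MT-TQ. MT-ND1 was at 1489, 1433 and 1349 CPM under fulvestrant and 3103, 3316 and 2989 under the combination, without overlap, with a log2 fold change of 1.14 (adjusted p 3.2e-16, SE 0.08). MT-TF, MT-TV, MT-RNR1, MT-ATP8, MT-TP, MT-TS2 and MT-TD were called with abemaciclib against DMSO and not here, and MT-TF had a log2 fold change of 0.07 (adjusted p 0.8, SE 0.16).

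**Figure D5:**
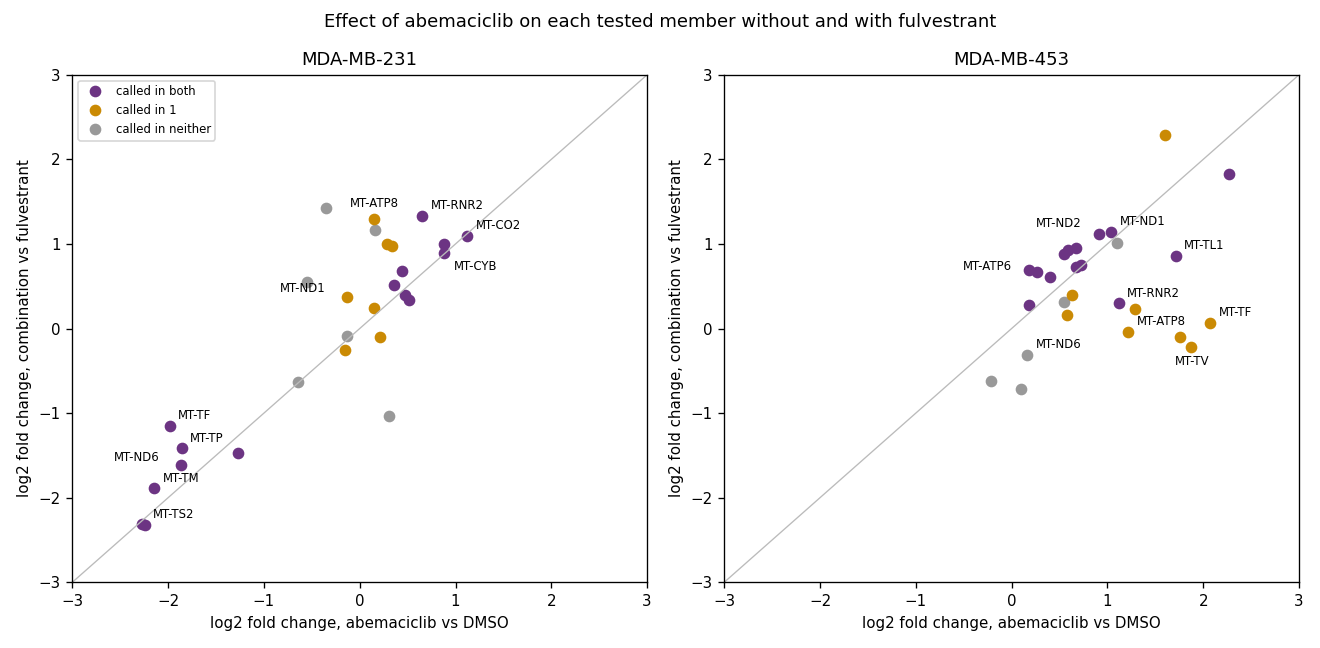
Log2 fold change of each tested member for abemaciclib against DMSO (x axis) and for the combination against fulvestrant (y axis). The grey line marks equal values and colours mark calls. The groups compared share no libraries, but both comparisons use the spread estimated from all groups of the line. In MDA-MB-231 15 members were called in the same direction in both comparisons, and in MDA-MB-453 14, all of them higher.

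Against DMSO, the combination changed 18 members in MDA-MB-231, 11 higher and 7 lower, where 35.4% of all genes were called, and 16 in MDA-MB-453, all higher, where 37.6% were called. With the A-stretch covariate 9 members rose and 7 fell in the former line. In MDA-MB-453 11 were then called higher and 6 lower, and MT-TF, MT-RNR2 and MT-ATP8 turned from called higher to called lower, at −0.65, −0.35 and −0.93. Of the 18 and 16 calls, 15 and 11 held in every alternative. Both share their DMSO libraries with the comparisons of abemaciclib. The log2 fold change of MT-ND6 was −1.93 (adjusted p 5.3e-13, SE 0.16) in MDA-MB-231, but it missed the threshold in MDA-MB-453 at −0.44 (adjusted p 0.064, SE 0.19), where the 3 combination libraries nevertheless lay below the 3 DMSO libraries.

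Adding fulvestrant to abemaciclib gave 0 called members of 28 in MDA-MB-231 with edgeR, where 0.0265% of all genes were called, with 8 members at an unadjusted p below 0.05 and 0 called by DESeq2. Without abemaciclib replicate 3, 4 members were called. In MDA-MB-453 it gave 6 lower members, where 2.46% of all genes were called. These were MT-TF, MT-TV, both rRNAs, MT-ATP8 and MT-ND4L. MT-TF was at 1746, 4272 and 3475 CPM under abemaciclib and 1253, 1296 and 1537 under the combination, without overlap, with a log2 fold change of −1.20 (adjusted p 6.0e-06, SE 0.17), and MT-RNR1 changed by −0.42 (adjusted p 4.2e-04, SE 0.07). Only these 2 calls held in every alternative, and without abemaciclib replicate 1 the number called was 10.

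The interaction, the combination effect minus the sum of both single-drug effects, was called for 1 member in MDA-MB-231, where 0.124% of all genes were called. This was MT-ATP8, at 1.15 (adjusted p 0.0097, SE 0.22), and it was not called with the A-stretch covariate or by DESeq2. The count ran from 0, without any of 5 single libraries, to 7, without fulvestrant replicate 1. In MDA-MB-453 it was called for 10 members, where 3.79% of all genes were called. The 6 of negative sign were MT-TF, MT-TV, MT-TL1, both rRNAs and MT-ATP8, from −2.09 for MT-TV to −0.42 for MT-RNR1, and the 4 of positive sign were MT-ATP6, MT-CO3, MT-ND4 and MT-ND3, from 0.33 to 0.51. With the covariate 0 of these 10 were called, and without the 4 libraries 3 members were.

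The nuclear genes of the respiratory chain were mostly lower in MDA-MB-453, where the heavy-strand mRNAs rose. Among nuclear-encoded subunits of complexes I to IV and ATP synthase, abemaciclib against DMSO raised 31 and lowered 9 of 74 tested genes in MDA-MB-231, and the median change was 0.18 on the log2 scale. In MDA-MB-453 it raised 2 and lowered 42 of 75, with a median of −0.32; the share of all genes called and their medians in these comparisons were given above. UQCR11 of complex III rose in MDA-MB-231 from 209 ± 13.4 to 408 ± 30.4 CPM (log2 fold change 0.97, adjusted p 6.3e-11, SE 0.10), and SDHB of complex II fell from 67 ± 3.33 to 39.1 ± 0.592 CPM (log2 fold change −0.77, adjusted p 1.0e-04, SE 0.15). NDUFB2, a complex I subunit, rose by 0.83 and NDUFV3, another, fell by 0.67 on the log2 scale. In MDA-MB-453, NDUFB9 of complex I fell from 450.3 ± 11 to 268 ± 9.54 CPM (log2 fold change −0.75, adjusted p 9.5e-10, SE 0.09), and NDUFB8 fell by 0.89, while NDUFS1 and SDHC rose by 0.72 and 0.40. The test of the difference between lines was negative for 40 of the 75 genes and positive for 1, with all 11 complex IV genes among the 40. Over all genes 13% were called lower and 7.72% higher in this test, which also left the score out.

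Genes that copy, transcribe and process mitochondrial DNA and RNA mostly did not pass the test, which also held for all genes. Of 39 tested genes, 1 rose and 8 fell in MDA-MB-231 (median −0.14), and 2 rose and 7 fell in MDA-MB-453, with a median of −0.0064. Over all genes, 16.9% rose and 16.9% fell in MDA-MB-231, and 16.6% rose and 19.4% fell in MDA-MB-453. TFAM, which packages mitochondrial DNA and starts its transcription, fell in MDA-MB-231 from 315 ± 28.4 to 179 ± 9.78 CPM (log2 fold change −0.81, adjusted p 2.2e-08, SE 0.10). TK2, the mitochondrial thymidine kinase, rose from 8.62 ± 3.82 to 27.1 ± 6.27 CPM (log2 fold change 1.65, adjusted p 2.0e-06, SE 0.26), and RNASEH1, which removes RNA from hybrids with DNA, fell by 0.58. In MDA-MB-453, LRPPRC, which stabilises mitochondrial mRNAs, rose from 70.3 ± 3.98 to 95.7 ± 7.74 CPM (log2 fold change 0.44, adjusted p 0.0063, SE 0.13), and RNASEH1 rose by 0.60. FASTKD2, an RNA-binding protein of the mitochondrial ribosome, fell from 39.8 ± 3.74 to 16.2 ± 2.69 CPM (log2 fold change −1.30, adjusted p 1.6e-06, SE 0.21), and POLG, the mitochondrial DNA polymerase, fell by 0.91.

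A list of 12 genes of cell stress and death was read beside these counts. In MDA-MB-231 1 of 11 tested genes rose and 2 fell, against 16.9% and 16.9% of all genes. DDIT4, an inhibitor of mTORC1 signalling, rose from 4.68 ± 1.27 to 23.5 ± 3.7 CPM (log2 fold change 2.32, adjusted p 3.6e-08, SE 0.30), whereas ATF3 and HMOX1, which respond to stress, fell by 1.85 and 1.80. In MDA-MB-453 1 of 10 rose and 1 fell, against 16.6% and 19.4% of all genes. These were DDIT4, by 1.13 upwards, and TRIB3, by 0.69 downwards. MALAT1 and NEAT1, long RNAs retained in the nucleus, both rose with abemaciclib in MDA-MB-453, MALAT1 from 1603 ± 58.4 to 4329 ± 1141 CPM and NEAT1 from 33.8 ± 2.58 to 65.3 ± 11.9 CPM. In MDA-MB-231 MALAT1 fell from 697.6 ± 40.02 to 521 ± 99.4 CPM (log2 fold change −0.42, adjusted p 0.0086, SE 0.13), and NEAT1 was not called, at 42.9 ± 8.72 and 33.7 ± 6.73 CPM. The part of these changes in the mitochondrial values was not tested.

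Nuclear copies of mitochondrial genes can compete for the same reads. The table holds 408 such symbols, of which 71 had a count, and together they took between 0.099% and 0.287% of the counts of a library. The most counted was MTATP6P1, with 751 CPM for DMSO and 829 for abemaciclib in MDA-MB-231, and 1121 and 1442 in MDA-MB-453. Unlike the other CPM here, these are pooled over the libraries of a group and use no TMM factors. Of those tested with abemaciclib against DMSO, 3 of 10 rose and 1 fell in MDA-MB-231, and 9 of 15 rose and 0 fell in MDA-MB-453. The shares of all genes were 16.9% higher and 16.9% lower in the former line, and 16.6% and 19.4% in the latter. How reads that align to several places were counted is not given in the sources used here, so the split of reads between a member and its copies is uncertain.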

How the data were processed

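The data are 3′ RNA-seq profiles of 24 libraries. Reads were trimmed (BBDuk), aligned to hg38 (STAR) and assigned to GENCODE v35 genes (featureCounts) by the authors. They deposited raw counts, which are whole numbers without normalisation. The strand setting, the handling of reads with several alignments and any use of molecular identifiers are not given in the sources used here. An unnamed line of the table held 0 counts. Library totals were 2873558 to 4158762, and replicate pairs differed beyond sampling noise (chi-square per degree of freedom 2.64 to 8.65 over 24 pairs).

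Tests used edgeR 4.0.16 in R 4.3.3 (filterByExpr, TMM, quasi-likelihood test), per line for treatments and over all 24 libraries for differences between lines. P-values were adjusted by the Benjamini-Hochberg method over all genes tested and called below 0.05. The biological coefficient of variation was 13.4%, 12.6% and 13.2% in the MDA-MB-231, MDA-MB-453 and joint fits. The fit was tested on simulated data. Shares were compared by exact 2-sided permutation tests. DESeq2 1.42.0, its size factors, scaling by nuclear genes, library totals, no filter, a replicate block, fits of the compared groups only and omission of each library were alternatives.

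Members averaging at least 10 CPM in a line were named with values, and those of at least 1 CPM were named. From the nuclear gene lists, up to 2 called genes in each direction per line and group of lists were named. MALAT1, NEAT1 and MTATP6P1 were named after their values were seen. The members and lists were chosen with earlier results of these data known. Gene positions were taken from GENCODE v44, and the A-stretch score used its longest transcript of each gene (with and without an A run, 2561 and 7002 genes for MDA-MB-231 and 2430 and 6980 for MDA-MB-453).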

Additional observations from a re-analysis of the deposited data

Results flagged for a closer look

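The effect of abemaciclib differed between the lines for 19 members by the direct test in edgeR's quasi-likelihood fit of all 24 libraries. Only 10 of these calls held in every alternative, namely MT-TF, MT-TL1, MT-TM, MT-TS2, MT-TP, MT-ND1, MT-ND2, MT-ND6, MT-CO1 and MT-CO2. All values here are log2 differences, positive where the effect was more positive in MDA-MB-453 than in MDA-MB-231. Among tRNAs they were 4.06 for MT-TF, 4.01 for MT-TS2, 3.31 for MT-TI, 2.705 for MT-TM, 2.63 for MT-TT, 2.50 for MT-TP, 1.95 for MT-TD, 1.60 for MT-TV and 1.38 for MT-TL1. Among mRNAs of complex I they were 2.04 for MT-ND6, 1.18 for MT-ND1, 1.05 for MT-ND2, 0.34 for MT-ND3, 0.34 for MT-ND4L and 0.29 for MT-ND5. The remaining mRNAs gave 1.08 for MT-ATP8, 0.54 for MT-CO1, −0.45 for MT-CO2 and −0.46 for MT-CYB.

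The abemaciclib effect also differed with and without fulvestrant, by the interaction term within a line. In MDA-MB-453 the interaction was −2.09 for MT-TV, −2.01 for MT-TF, −1.26 for MT-ATP8, −0.85 for MT-TL1, −0.82 for MT-RNR2 and −0.42 for MT-RNR1. It was positive for MT-ATP6 at 0.51, MT-CO3 at 0.40, MT-ND3 at 0.33 and MT-ND4 at 0.34. In MDA-MB-231 it was 1.15 for MT-ATP8. None of these interaction calls held in every alternative tried. No group was tested for a library that stands apart, since each holds 3.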

How the results depend on the processing

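The 176 called values of single members, over all comparisons, were recomputed under 2693 alternatives in all, of which 2440 kept direction and call, 233 lost the call and 20 turned direction, and 107 of the 176 kept both throughout. Depth limits the rare tRNAs, whose standard errors reached 1.13 on the log2 scale. Counts of called members changed by over 1.5 times as follows. With no filter on low counts, MDA-MB-231 gave 3 members for fulvestrant against DMSO, 4 for the combination against abemaciclib and 5 for the interaction, and with only the groups compared it gave 2 for the combination against abemaciclib. The interaction in MDA-MB-231 gave 0 members with DESeq2 and 0 with the A-stretch covariate. In MDA-MB-453 the covariate gave 13 for abemaciclib against DMSO, 7 for fulvestrant against DMSO and 0 for the interaction. The other added alternative left out abemaciclib replicates 2 and 3 and fulvestrant replicates 1 and 2 of MDA-MB-453. Without these 4 libraries, 7 were called for fulvestrant against DMSO and 2 for the combination against abemaciclib. There were 3 for the interaction and 12 for the difference between lines. The cause was not tested. The difference in total mitochondrial share between the combination and abemaciclib in MDA-MB-453, −2.6 percentage points, was 0.33 with the 13 mRNAs alone.

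The values of called members that turned direction did so with the A-stretch covariate or without the 4 libraries. With the covariate, MT-TL1 was −0.085, MT-ND1 −0.056 and MT-ATP8 −0.032 for the combination against fulvestrant in MDA-MB-231, and MT-TL1 was −0.0077 and MT-ATP8 −0.051 for the combination against DMSO. In MDA-MB-453 MT-TV was −0.20, MT-ATP8 −0.71 and MT-TP −0.65 for abemaciclib against DMSO, MT-TF −0.27 and MT-ATP8 −0.48 for fulvestrant against DMSO, MT-TF −0.65, MT-RNR2 −0.35, MT-ATP8 −0.93 and MT-TP −0.51 for the combination against DMSO, and MT-ATP8 0.27 for the interaction. MT-ATP8 was −0.36 for the difference between lines. Without the 4 libraries, MT-ATP8 was −0.30 for fulvestrant against DMSO, 0.00035 for the combination against abemaciclib and 0.30 for the interaction, and MT-RNR2 was 0.040 for the interaction.

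Leaving out a single library moved the number of called members in MDA-MB-231 between 15 and 19 for abemaciclib against DMSO, 0 and 5 for fulvestrant against DMSO, 18 and 19 for the combination against DMSO, 0 and 4 for the combination against abemaciclib, 19 and 21 for the combination against fulvestrant, and 0 and 7 for the interaction. In MDA-MB-453 the ranges were 18 to 20, 2 to 14, 15 to 17, 4 to 10, 14 to 17 and 7 to 12 in the same order. They were 19 to 21 for the lines under DMSO and 16 to 20 for the difference between lines. The count for fulvestrant against DMSO in MDA-MB-453 was 7 without DMSO replicate 1 or 2, 5 without DMSO replicate 3, 6 without fulvestrant replicate 1 and 2 without fulvestrant replicate 2. The interaction in MDA-MB-231 was called for 0 members without abemaciclib replicate 1 or 2, fulvestrant replicate 2 or 3 or combination replicate 2, for 4 without abemaciclib replicate 3 and for 7 without fulvestrant replicate 1. Fulvestrant against DMSO in that line gave 5 without fulvestrant replicate 1.

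The labels do not say whether same-numbered libraries belong together, so the counts were searched for a sign of pairing. The correlation of same-numbered libraries' deviations from their group means lay between −0.092 and 0.045, under the 0.1 asked for in every pair. With the replicate block the count was 22 in place of 21 for the combination against fulvestrant in MDA-MB-231, 11 in place of 12 for fulvestrant against DMSO in MDA-MB-453, 20 in place of 21 for the lines under DMSO and 18 in place of 19 for the difference between lines, and it was the same as without the block in the other 10 comparisons.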
